A study of Mus musculus with 23 samples.

Results

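Dbp, Tef, Hlf and Nfil3 are transcription factor genes that carry the rhythm of the circadian clock to other genes, and their levels were measured here in mouse nucleus accumbens, the part of the ventral striatum involved in reward. They were taken by name, each from the probe sets with a single gene symbol, and where a gene had several the probe set with the highest mean was used. All 4 genes were measured, out of 22180 named genes. Dbp was read by probe set 17477979, Hlf by 17267702, Nfil3 by 17292634 and Tef by 17313376. Tef had a second probe set, 17319524, of lower intensity.

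Each of 23 arrays measured 1 C57BL/6 mouse of about 15 weeks of age. An adeno-associated virus (AAV) had been placed in the nucleus accumbens about 5 weeks before, and the region was then micropunched. The virus carried a short hairpin RNA against Nr1d1 (knockdown) or a scrambled hairpin (control), so every animal had received a virus and a hairpin. The females comprised 5 controls and 6 labelled knockdown, and the males 6 of each. The labels speak of postpartum day 7 for both sexes, and no comparison here uses it. The sources used here do not give the promoter of the hairpin, the cells it reached or the hour of collection, and a clock output gene changes with the hour. Levels are the authors' log2 intensities, on which a difference of 1 is a doubling.

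DBP, TEF and HLF form the PAR bZIP family, basic leucine zipper proteins with a proline- and acidic-residue-rich domain that activate genes through a DNA element called the D-box. NFIL3, also called E4BP4, is a bZIP repressor that binds the same element, and the balance of activators and repressor sets the timing of D-box genes such as Per3. The pair of CLOCK and BMAL1 (the Arntl product) drives Dbp through E-boxes. REV-ERBα, the product of Nr1d1, represses Nfil3 and Arntl by binding a ROR response element (RORE), which the ROR receptors activate. In many tissues Dbp is among the most strongly rhythmic transcripts. Mice that lack all 3 PAR bZIP factors are prone to seizures.

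The promoters of these genes were read from RefSeq (GRCm38.p6) to show which of these elements lie next to their starts. A window was found for each of the 4 genes, 5 in all since Tef has 2 listed starts, and each covers the 250 bases before the start. Letters searched on both strands were CACGTG for the E-box, TTATGTAA or TTACGTAA for the D-box, AGGTCA for the core of the RORE and TGACGTCA for the cyclic AMP response element (CRE). No letters were shared between matches in the windows shown. Among 32851 windows of the same length in the table, 6.02% held the E-box, 0.932% the D-box, 14.02% the RORE core and 1.55% the CRE. Each window of a member that held a match is given below, with Per3 added as a D-box gene, and capitals mark the match.
Tef, first start (chr15:81802423-81802672, plus strand): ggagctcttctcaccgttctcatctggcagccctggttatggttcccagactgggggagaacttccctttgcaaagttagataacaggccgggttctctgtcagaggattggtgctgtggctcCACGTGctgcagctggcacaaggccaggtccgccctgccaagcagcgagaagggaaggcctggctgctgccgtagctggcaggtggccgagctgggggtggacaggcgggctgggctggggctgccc
Tef, second start (chr15:81811164-81811413, plus strand): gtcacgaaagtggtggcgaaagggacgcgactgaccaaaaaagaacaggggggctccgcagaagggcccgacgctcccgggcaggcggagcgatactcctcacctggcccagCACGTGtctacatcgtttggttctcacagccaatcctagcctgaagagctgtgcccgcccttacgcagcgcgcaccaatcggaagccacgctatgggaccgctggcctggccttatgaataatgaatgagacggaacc
Hlf (chr11:90390918-90391167, minus strand): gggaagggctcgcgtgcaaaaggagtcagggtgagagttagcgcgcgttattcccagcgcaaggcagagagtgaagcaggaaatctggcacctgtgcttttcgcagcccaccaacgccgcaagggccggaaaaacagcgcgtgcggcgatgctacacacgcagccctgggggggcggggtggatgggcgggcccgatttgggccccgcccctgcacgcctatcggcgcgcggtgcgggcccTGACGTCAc
Nfil3 (chr13:52981040-52981289, minus strand): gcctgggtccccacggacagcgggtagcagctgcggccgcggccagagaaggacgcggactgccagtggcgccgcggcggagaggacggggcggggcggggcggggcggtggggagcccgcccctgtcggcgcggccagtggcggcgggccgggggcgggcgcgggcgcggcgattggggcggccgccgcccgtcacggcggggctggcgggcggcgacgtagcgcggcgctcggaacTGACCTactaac
Per3 (chr4:151044666-151044915, minus strand): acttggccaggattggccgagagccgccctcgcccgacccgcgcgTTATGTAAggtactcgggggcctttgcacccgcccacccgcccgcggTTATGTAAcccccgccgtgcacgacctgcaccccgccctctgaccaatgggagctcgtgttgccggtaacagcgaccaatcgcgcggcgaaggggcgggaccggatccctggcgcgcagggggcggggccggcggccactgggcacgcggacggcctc

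Both Tef windows held 1 E-box, which began 127 bases before the first start and 138 before the second. The Hlf window held 1 CRE, beginning 9 bases before the start. In Nfil3 the RORE core lay on the opposite strand, where it reads TGACCT, beginning 12 bases before the start. Per3 held the D-box letters at 2 places, 205 and 158 bases before its start. The Dbp window (chr7:45704997-45705246, plus strand) held none of these letters, which says only that they are not in these 250 bases. A match is a description of letters and does not show binding.

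Array medians of the deposited values lay between 6.11 and 6.17 in females and between 5.84 and 5.88 in males. The sexes may have been scaled separately, which the sources used here do not state. Sex and such a scaling could not be told apart, and levels were not tested between the sexes. Xist stood at 11.40 to 11.78 in the females and 3.85 to 4.12 in the males. The tissue showed the medium spiny neuron markers Drd1, Drd2, Penk, Pdyn and Tac1, with no group mean among the 9 measured markers below the lower quartile of the arrays. Markers of cortical excitatory neurons, a cell type from outside the accumbens, varied between punches. The mean of the 6 measured of 7 such genes ranged from 7.15 to 8.04 in control females and 6.93 to 8.32 in females labelled knockdown. In males it ranged from 5.46 to 8.29 in controls and from 5.58 to 7.73 in those labelled knockdown, and none of the 6 had a group mean below the lower quartile. The gene Slc17a7, a vesicular glutamate transporter of these neurons, spanned 4.64 to 10.34 in the male controls.

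Nr1d1, the targeted transcript, was not detectably lower in the arrays labelled knockdown. In control females it read 10.05, 10.06, 10.09, 9.93 and 10.09, and in females labelled knockdown 9.73 at the lowest, 9.98 at the median and 10.17 at the highest. In males the controls ran from 9.42 to 9.85 with a median of 9.50, and the arrays labelled knockdown from 9.44 to 9.76 with a median of 9.57. The groups overlapped in both sexes. The difference was −0.05 in females (SE 0.09, limma adjusted p = 0.963; 0 without female knockdown replicate 4) and −0.01 in males (SE 0.09, adjusted p = 0.997). By a two-sided exact permutation test p was 0.563 in females and 0.926 in males, where the smallest possible p is 0.00216. All directions below therefore rest on the label of the array.

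None of the 4 output factors passed the threshold after the Nr1d1 hairpin in either sex. Throughout, a limma model with 1 mean for each of the 4 groups was fitted to all 41345 probe sets, with a two-sided test and a Benjamini-Hochberg adjusted p of 0.05 as the threshold. The count of probe sets past it was 0 in females, 0 in males, 0 for the average of the sexes and 0 for the difference between the sexes, which is 0% of those tested. At an unadjusted p under 0.05 the counts were 2423 (5.86%), 1948 (4.71%), 1949 (4.71%) and 2358 (5.70%). Nfil3 and Hlf in females, and Nfil3 for the difference between the sexes, were among these, so that 2 of 4 factors in females stood against the 5.86% of all probe sets. Control and knockdown arrays overlapped for all 4 factors in both sexes, while 0.588% of all probe sets did not overlap in females and 0.109% in males.

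**Figure D1:**
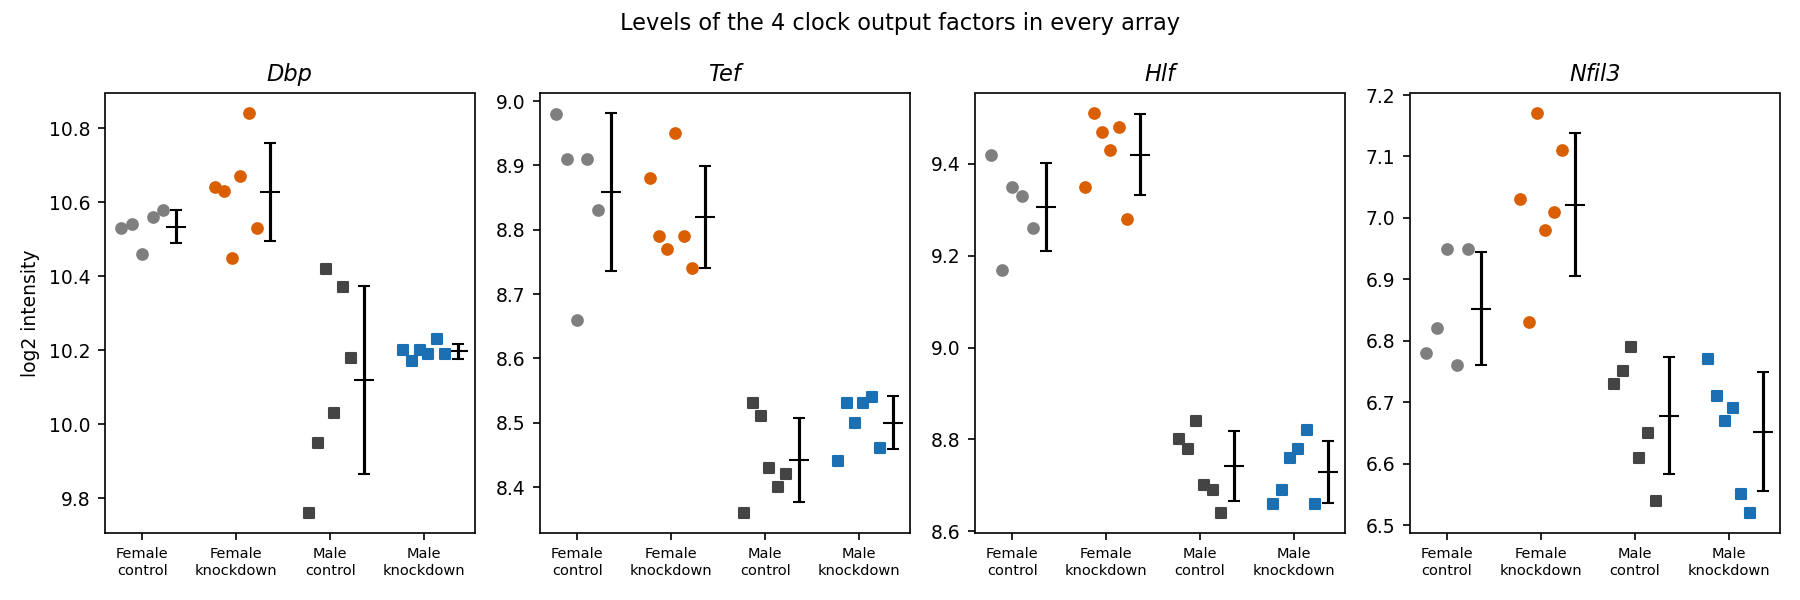
Log2 intensity of Dbp, Tef, Hlf and Nfil3 in each of the 23 arrays (points), with the group mean and standard deviation beside the points (bars). Axes differ between panels and do not start at 0. Dbp spans 9.76 to 10.42 in the 6 male controls and 10.17 to 10.23 in the 6 males labelled knockdown.

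Nfil3, the D-box repressor, had the lowest unadjusted p of the 4 factors, in females. In control females its level was 6.78, 6.82, 6.95, 6.76 and 6.95. In females labelled knockdown it was 6.83 at the lowest, 7.02 at the median and 7.17 at the highest, with 5 of 6 above the control mean. Means were 6.85 ± 0.09 (SD, n = 5) and 7.02 ± 0.12 (SD, n = 6), and 5 of the 6 lay above every control. The difference was 0.17 (SE 0.06, 95% interval 0.04 to 0.30), which is 12.5% higher. Its unadjusted p was 0.014, and it did not pass the threshold (limma adjusted p = 0.839).

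In males Nfil3 ran from 6.54 to 6.79 in controls, with a median of 6.69, and from 6.52 to 6.77 in the arrays labelled knockdown, with a median of 6.68. The groups covered nearly the same range. The difference was −0.03 (SE 0.06, interval −0.15 to 0.10, limma adjusted p = 0.996), with 3 of 6 below the control mean. The male difference minus the female difference was −0.20 (SE 0.09, interval −0.38 to −0.01), with an unadjusted p of 0.036 and an adjusted p of 0.866. A difference of the effect between the sexes was thus not shown. Averaged over the sexes Nfil3 stood at 0.07 (SE 0.04, adjusted p = 0.980).

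Hlf, the PAR bZIP activator named for its part in a leukaemia fusion protein, was the other factor with an unadjusted p under 0.05 in females. Controls read 9.42, 9.17, 9.35, 9.33 and 9.26, a mean of 9.31 ± 0.10 (SD, n = 5). The arrays labelled knockdown ran from 9.28 to 9.51 with a median of 9.45 and a mean of 9.42 ± 0.09 (SD, n = 6). Control replicates 1, 3 and 4 lay within the knockdown range, so the groups overlapped. The difference was 0.11 (SE 0.05, interval 0.002 to 0.23, unadjusted p = 0.047), higher in 5 of 6 mice, and did not pass the threshold (limma adjusted p = 0.850).

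In males Hlf ran from 8.64 to 8.84 in controls, with a median of 8.74, and from 8.66 to 8.82 in the arrays labelled knockdown, with a median of 8.73. The difference was −0.01 (SE 0.05, interval −0.12 to 0.09, limma adjusted p = 0.996). The male minus the female difference was −0.13 (SE 0.08, adjusted p = 0.890). The average over the sexes was 0.05 (SE 0.04, adjusted p = 0.980), with 8 of 12 mice on that side.

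Dbp, a direct target of CLOCK and BMAL1, overlapped between the groups in both sexes, and its spread was wide in the male controls. In control females it read 10.53, 10.54, 10.46, 10.56 and 10.58, a mean of 10.53 ± 0.05 (SD, n = 5). In females labelled knockdown it ran from 10.45 to 10.84 with a median of 10.64, a mean of 10.63 ± 0.13 (SD, n = 6). Replicate 5 was the highest of these, and the group reached above the controls. Replicate 3 was the lowest, at 10.45 beside 10.46 for the lowest control. The difference was 0.09 (SE 0.09, interval −0.09 to 0.28, limma adjusted p = 0.933), and it was 0.05 without female knockdown replicate 5.

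The 6 male controls were 9.76, 9.95, 10.42, 10.03, 10.37 and 10.18 for Dbp, a mean of 10.12 ± 0.25 (SD, n = 6). The 6 males labelled knockdown read 10.20, 10.17, 10.20, 10.19, 10.23 and 10.19, a mean of 10.20 ± 0.02 (SD, n = 6). All 6 lay above the control mean and inside the control range. The difference was 0.08 (SE 0.08, interval −0.10 to 0.25, adjusted p = 0.996 by limma, which assumes 1 spread for all groups), and it was 0.01 without male control replicate 1. The SDs are given as a description and were not tested. The average over the sexes was 0.09 (SE 0.06, adjusted p = 0.980), and the male minus the female difference was −0.01 (SE 0.12, adjusted p = 0.995). The average was 0.05 (0.0497) without male control replicate 1. With the cortical mean as covariate it was 0.12 (SE 0.05, unadjusted p = 0.0213), short of the threshold at a limma adjusted p of 0.950.

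Tef, the PAR bZIP activator with an E-box before each of its listed starts, had an average difference near 0 by its brighter probe set. Control females read 8.98, 8.91, 8.66, 8.91 and 8.83, a mean of 8.86 ± 0.12 (SD, n = 5), and those labelled knockdown ran from 8.74 to 8.95 with a median of 8.79. The knockdown values lay wholly within the control range. The difference was −0.04 (SE 0.05, interval −0.15 to 0.07, limma adjusted p = 0.954). It was −0.0875 without female control replicate 3 and −0.0075 without female control replicate 1.

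Male controls ran from 8.36 to 8.53 for Tef with a median of 8.43, and males labelled knockdown from 8.44 to 8.54 with a median of 8.52. The difference was 0.06 (SE 0.05, interval −0.05 to 0.16, adjusted p = 0.996), higher in 5 of 6 mice. The average over the sexes was 0.01 (SE 0.04, interval −0.07 to 0.09, adjusted p = 0.994) and the male minus the female difference 0.10 (SE 0.07, adjusted p = 0.930). The second Tef probe set read 7.05 ± 0.17 (SD, n = 5) in control females against 7.13 ± 0.13 (SD, n = 6), a difference of 0.08 (SE 0.08), opposite in sign to the first. Its average over the sexes was 0.07 (SE 0.06, adjusted p = 0.980). In males it read 6.91 ± 0.18 (SD, n = 6) against 6.98 ± 0.07 (SD, n = 6). The 2 probe sets did not settle a direction for Tef in females.

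For each factor the order of the group means put both female groups above both male groups. Dbp averaged 10.58 in all females and 10.16 in all males, Tef 8.84 and 8.47, Hlf 9.37 and 8.74 (8.735 before rounding), and Nfil3 6.94 and 6.67 (6.665). The female minus male difference was 0.43, 0.37, 0.63 and 0.28 in that order, beside a median of 0.27 over all probe sets. Within a sex, the control and knockdown means of each factor were neighbours, and no difference between them passed the threshold.

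**Figure D2:**
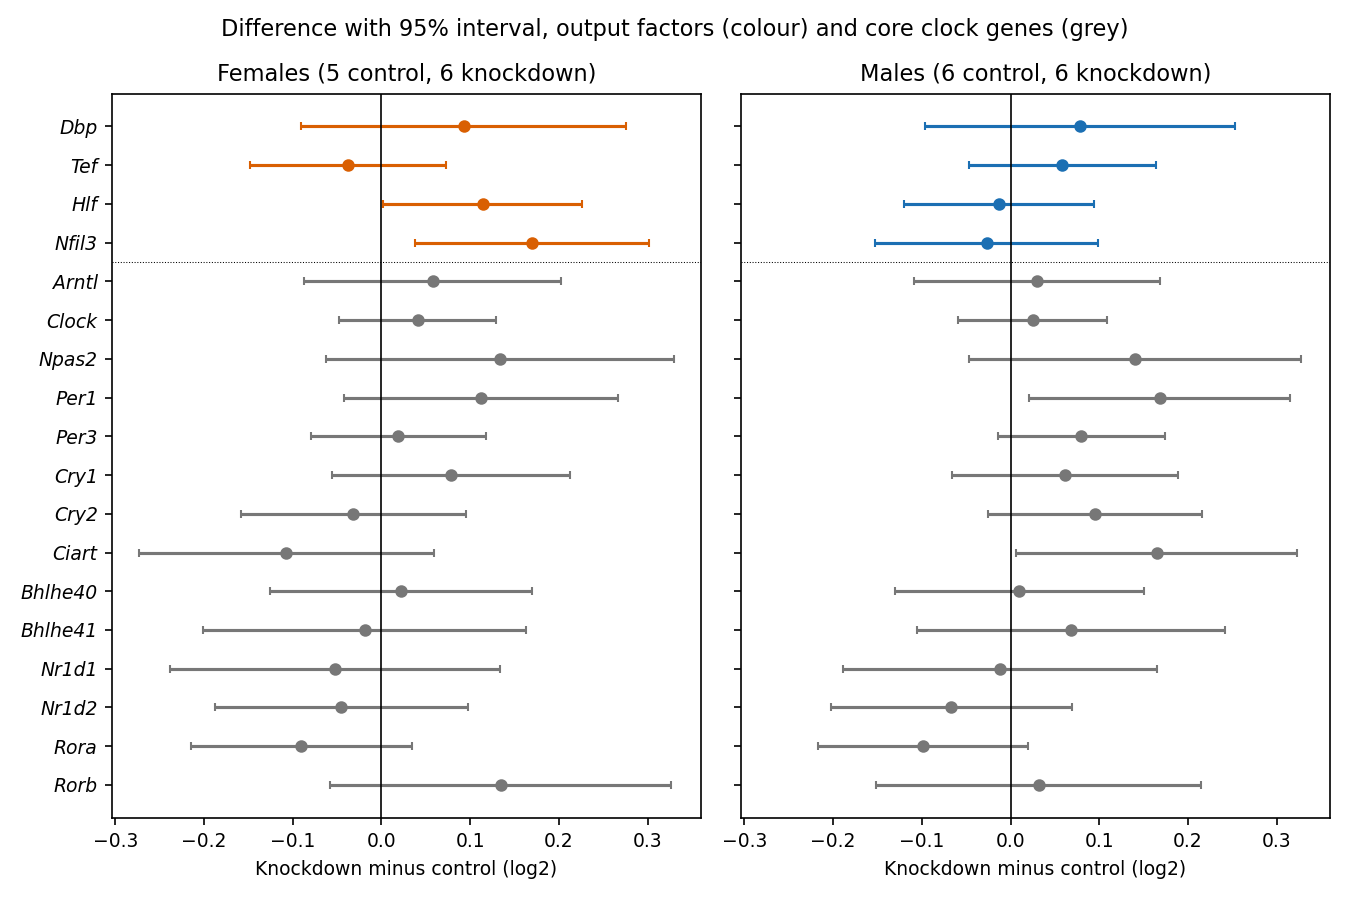
Difference of arrays labelled knockdown minus controls on the log2 scale (points) with 95% intervals from the limma model, for the 4 output factors (colour) and 14 core clock genes (grey), in females on the left and males on the right. Intervals are not adjusted for the number of genes. Those of Nfil3 and Hlf in females, and of Per1 and Ciart in males, leave out 0.

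The genes upstream and downstream of these factors showed no call either. None of the 3 clock activators, 7 measured of 8 clock repressors, 4 measured clock nuclear receptors, 6 of 7 D-box genes, 4 of 5 reported PAR bZIP targets and 6 C/EBP family genes passed the threshold in any contrast. Among the genes not measured, Per2 and Por had no probe set with a symbol of their own. The lists were chosen with earlier results of these data known, and their counts are descriptions.

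The clock activators Npas2, Clock and Arntl had positive differences in both sexes, with a list median of 0.06 in females and 0.03 in males, beside medians of all probe sets of 0.006 and 0. Npas2, a partner of BMAL1 that stands in for CLOCK in the forebrain, was the widest at 0.13 (SE 0.09, limma adjusted p = 0.892) in females and 0.14 (SE 0.09, adjusted p = 0.996) in males. Clock, the other BMAL1 partner, stood at 0.04 (SE 0.04) and 0.03 (SE 0.04). The male minus the female difference was −0.03 (SE 0.10) for Arntl and −0.02 (SE 0.06) for Clock.

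Among the 7 clock repressors 4 were higher and 3 lower in females, with a median of 0.02, and 7 were higher in males, with a median of 0.08. Per1, a core repressor that also responds to neuronal activity, stood at 0.11 (SE 0.07, limma adjusted p = 0.885) in females and 0.17 (SE 0.07, adjusted p = 0.996) in males, above the control mean in 12 of 12 mice. Ciart, a repressor of CLOCK and BMAL1, was at −0.11 (SE 0.08) in females and 0.17 (SE 0.08) in males. Its male minus female difference was 0.27 (SE 0.11, adjusted p = 0.852). Cry1 averaged 0.07 (SE 0.04) over the sexes, and Cry2 had a male minus female difference of 0.13 (SE 0.08). The gene Per3, with 2 D-boxes in its window, stood at 0.02 (SE 0.05) in females and 0.08 (SE 0.05) in males.

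Of the 4 nuclear receptors, Nr1d1 included, 3 were lower in each sex, with medians of −0.05 and −0.04. Rora, an activator of ROREs, stood at −0.09 (SE 0.06, limma adjusted p = 0.885) in females and −0.10 (SE 0.06, adjusted p = 0.996) in males, below the control mean in 12 of 12 mice. Rorb, a related receptor, stood at 0.13 (SE 0.09) in females and 0.03 (SE 0.09) in males. The REV-ERBβ gene Nr1d2 was at −0.07 (SE 0.07) in males. The D-box genes, all of them also in the repressor or receptor lists, were split 3 higher and 3 lower in each sex, with medians of −0.01 and 0.01.

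The measured targets reported for the PAR bZIP factors did not pass the threshold in either sex. Their median was 0 in females, 2 higher and 2 lower, and 0.04 in males, 3 higher and 1 lower. Pdxk, which makes pyridoxal phosphate and is the target tied to seizures in mice that lack the factors, stood at −0.02 (SE 0.06, limma adjusted p = 0.986) and 0.04 (SE 0.06, adjusted p = 0.996). Nr1i3, a xenobiotic receptor studied in liver, was at 0.07 (SE 0.07) and 0.13 (SE 0.07). Alas1, the first enzyme of haem synthesis, was at −0.03 (SE 0.05) and 0.05 (SE 0.04), and Ppara, a lipid-sensing receptor, at 0.02 (SE 0.05) and −0.06 (SE 0.04).

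The C/EBP genes encode bZIP proteins with similar DNA contacts. Their median was −0.01 in females, 1 higher and 5 lower, and 0.04 in males, 4 higher and 2 lower. Cebpa stood at −0.07 (SE 0.09, limma adjusted p = 0.949) in females and 0.08 (SE 0.09, adjusted p = 0.996) in males, and Cebpe at 0.09 (SE 0.08) and −0.01 (SE 0.08). Ddit3, a stress-induced member, was at −0.02 (SE 0.06) in females and 0.10 (SE 0.06) in males.

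Covariation asked whether mice with more of one factor also had more of another. After each group's mean was removed, the 4 factors did not covary detectably with each other over the 23 mice. The family held 62 relations, the 6 pairs of factors and each factor with 14 core clock genes, tested by 100000 permutations within groups. By Pearson's r 0 of 62 passed an adjusted p of 0.05 and 10 had an unadjusted p under 0.05, none of them between 2 of the factors. The share of all genes at that unadjusted p was not counted, so the 10 cannot be read as particular to clock genes.

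Dbp and Tef had r = 0.25 and rho = 0.32 (permutation p = 0.234 and 0.177, adjusted 0.518 and 0.485), and r was 0.04 without male control replicates 1 and 3, the arrays farthest from the median of Dbp. Dbp and Hlf had r = 0.01 and rho = −0.02 (permutation p = 0.969 and 0.928, adjusted 0.969 and 0.969). Tef and Hlf had r = 0.19 and rho = 0.19 (permutation p = 0.479 and 0.44, adjusted 0.812 and 0.70), with r = 0.02 in females and 0.53 in males. This r was 0.053 without female control replicate 1, 0.357 without female control replicate 3 and 0.40 without female control replicate 3 and female knockdown replicate 4. No pair of PAR bZIP factors passed the threshold.

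The repressor Nfil3 gave a negative r with Dbp and Tef and an r near 0 with Hlf. For Dbp r was −0.19 and rho −0.28 (permutation p = 0.42 and 0.223, adjusted 0.766 and 0.532). For Tef r was −0.25 and rho −0.28 (permutation p = 0.277 and 0.22, adjusted 0.562 and 0.532), with −0.52 in females and 0.22 in males. For Hlf r was −0.02 and rho 0.001 (permutation p = 0.934 and 0.998, adjusted 0.964 and 0.998), with −0.34 in females and 0.39 in males. The sign was therefore not the same in both sexes for Tef and Hlf.

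**Figure D3:**
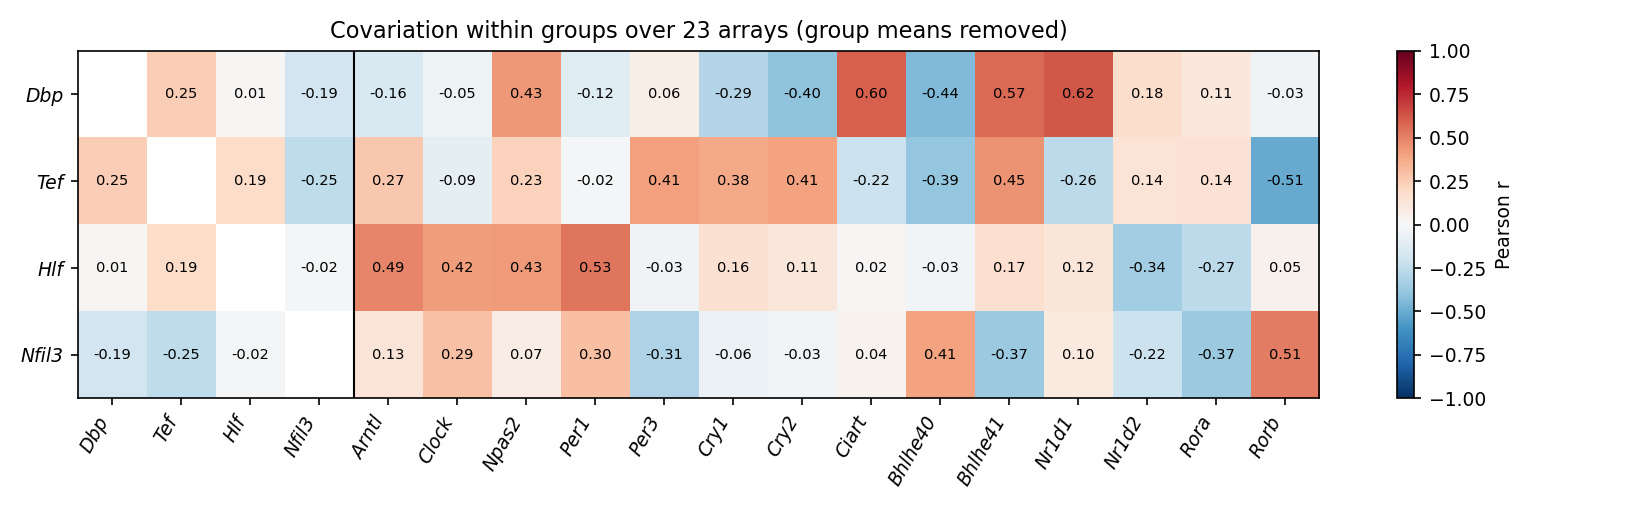
Pearson r of each output factor (rows) with the other factors and 14 core clock genes (columns) over 23 arrays after group means were removed; colour and number both give r. Values run from −0.51 (Tef with Rorb) to 0.62 (Dbp with Nr1d1), and 0 of 62 passed an adjusted permutation p of 0.05.

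With the core clock genes each factor gave a different order. Dbp had its highest r with Nr1d1, Ciart and Bhlhe41. For Nr1d1 r was 0.62 and rho 0.46 (permutation p = 0.021 and 0.077, adjusted 0.220 and 0.397), with 0.27 in females, 0.76 in males and 0.51 without male control replicates 1 and 3. For Ciart r was 0.60 and rho 0.63 (permutation p = 0.022 and 0.00415, adjusted 0.220 and 0.223), with 0.76 in females, 0.55 in males and 0.74 without those 2 arrays. Bhlhe41, the repressor also called DEC2, had r = 0.57 and rho = 0.36 (permutation p = 0.0127 and 0.12, adjusted 0.220 and 0.441), and r = 0.30 without those arrays. Without female knockdown replicate 5 the Bhlhe41 relation passed, with r = 0.64 (permutation adjusted p = 0.0422), beside adjusted p of up to 0.351 leaving out other single arrays. The lowest r of Dbp was −0.44 with Bhlhe40 (permutation p = 0.156, adjusted 0.453).

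Hlf had its highest r with Per1 at 0.53 (rho 0.51, permutation p = 0.00876 and 0.0198, adjusted 0.220 and 0.246), with 0.42 in females, 0.69 in males and 0.64 without the 2 arrays farthest from the median of Hlf. Hlf and Arntl had r = 0.49 and rho = 0.51 (permutation p = 0.023 and 0.0193, adjusted 0.220 and 0.246), with 0.43 without those 2 arrays. The lowest value of Hlf was −0.34 with Nr1d2 (permutation p = 0.134, adjusted 0.438).

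Tef was highest with Bhlhe41 at r = 0.45 (rho 0.46, permutation p = 0.0453 and 0.0389, adjusted 0.285 and 0.388) and lowest with Rorb at −0.51 (rho −0.59, permutation p = 0.022 and 0.00718, adjusted 0.220 and 0.223). The latter was −0.78 in females and −0.04 in males, and −0.41 without the 2 arrays farthest from the median of Tef. Nfil3 was highest with Rorb at 0.51 (rho 0.56, permutation p = 0.0248 and 0.012, adjusted 0.220 and 0.246), with 0.56 in females, 0.46 in males and 0.54 without the 2 arrays farthest from the median of Nfil3. It was lowest with Bhlhe41 at −0.37 (permutation p = 0.115, adjusted 0.415). None of these relations held after adjustment.

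Over the whole table, only Dbp had many probe sets that varied with it. A limma model with the 4 group means and the factor's own level as covariate called 321 of 41344 probe sets for Dbp (0.776%), 187 rising with it (0.452%) and 134 falling (0.324%). The count was 0 for Tef (0%), 0 for Hlf (0%) and 1 for Nfil3 (0.00242%), the last a probe set without a gene symbol, 17202927. None of the other factors or core clock genes was among the 321. The lowest adjusted p among them for Dbp was that of Nr1d1 (slope 0.63 log2 per log2 of Dbp, SE 0.19, limma adjusted p = 0.129). In this model Tef had a slope of 0.13 on Dbp (SE 0.14, adjusted p = 0.768).

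The count of probe sets that vary with Dbp changed with single arrays. It was 10 without male control replicate 1, 16 without replicate 5, 63 without replicate 3 and 135 without replicate 2 of that group. Without female control replicate 3 it was 180, and without female knockdown replicate 3 it was 148. Within females alone 0 probe sets passed and within males 2. The single call for Nfil3 was 0 without female knockdown replicate 2.

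The genes most like Dbp, among 12972 genes with a mean at or above the median probe set, were Dpp6, an auxiliary subunit of potassium channels, at r = 0.87, Cpne2, a copine, at 0.87 and Cradd, a death-domain adaptor, at 0.87. Osbpl1a, a sterol-binding protein gene, was the lowest at −0.89. The limma adjusted p of these 4 lay between 0.0102 and 0.0205. Their own r with the cortical marker mean was −0.81, −0.65, −0.69 and 0.58. For Tef the closest were Fam184b, Tmem191c and the cholesterol exporter Abcg1 at 0.76, 0.75 and 0.74, and Reep5 was lowest at −0.74 (limma adjusted p = 0.780 for all 4). Hlf was closest to D930048N14Rik, 6430584L05Rik and Dpf1 at 0.79, 0.71 and 0.70, and lowest with the Notch ligand Dner at −0.79 (adjusted p 0.844 to 0.964). Nfil3 was closest to Mdp1, Poc1a and Pdzrn3 at 0.83, 0.78 and 0.78, and lowest with Erich3 at −0.75 (adjusted p 0.197 to 0.352). Each r is over 23 arrays, and the values of 1 array come from 1 punch.

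The factors were also set against the cell types of the punch. Of 40 relations between a factor and the mean of a list of cell type, early response or glucocorticoid-induced genes, 0 passed an adjusted p of 0.05, and the 4 with the lowest p each had an adjusted permutation p of 0.0879. In bulk tissue, fewer cells of a type and less RNA per cell cannot be told apart.

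Dbp against the cortical marker mean gave r = −0.69 and rho = −0.57 (permutation p = 0.00795 and 0.0151, adjusted 0.0879 and 0.198). The value was −0.44 in females, −0.75 in males and −0.64 without male control replicate 1 and male knockdown replicate 6. The male controls with the lowest Dbp, replicates 1 and 2 at 9.76 and 9.95, had the highest cortical means of their group at 8.29 and 7.82. Replicates 3 and 5, with the highest Dbp, had cortical means of 5.72 and 5.64 (5.635). Replicate 6 had the lowest cortical mean, 5.46, with Dbp at 10.18. In males labelled knockdown the cortical mean spanned 5.58 to 7.73 while Dbp stayed between 10.17 and 10.23. With the cortical mean as a second covariate, 5 probe sets in place of 321 varied with Dbp, and r of Dbp with Ciart went from 0.60 to 0.59, with Nr1d1 from 0.62 to 0.55 and with Bhlhe41 from 0.57 to 0.27.

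Nfil3 against the same mean gave r = 0.54 and rho = 0.50 (permutation p = 0.00879 and 0.0198, adjusted 0.0879 and 0.198), with 0.84 in females, 0.50 in males and 0.49 without the same 2 arrays. With the cortical mean in the model the difference between knockdown and control was 0.16 for Nfil3 in females and 0.13 for Dbp in males. The r of Dbp with Nfil3 was 0.29 in place of −0.19. With the cortical mean removed, r of Hlf with Per1 went from 0.53 to 0.49, of Hlf with Arntl from 0.49 to 0.43, and of Nfil3 with Rorb from 0.51 to 0.37. The r of Tef with Rorb was −0.51 both before and after.

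**Figure D4:**
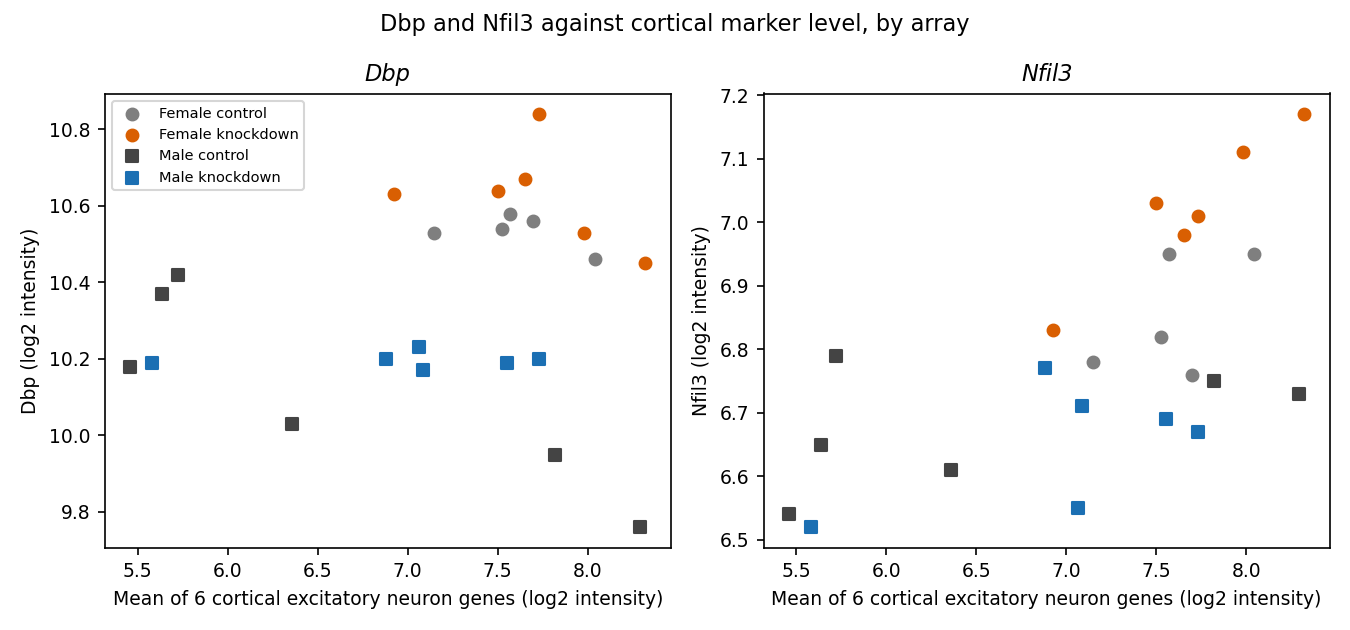
Log2 intensity of Dbp (left) and Nfil3 (right) against the mean log2 intensity of 6 cortical excitatory neuron genes, 1 point per array, coloured by group. The male controls with Dbp at 9.76 and 9.95 lie at cortical means of 8.29 and 7.82, and r of Nfil3 with the cortical mean is 0.84 in females after group means are removed.

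The largest values of Tef were with other cells. Its r with the mean of 9 medium spiny neuron genes was 0.59 and rho 0.59 (permutation p = 0.00409 and 0.00819, adjusted 0.0879 and 0.164), with 0.66 in females, 0.60 in males and 0.55 without male control replicate 1 and male knockdown replicate 6. With 7 microglial genes r was 0.58 and rho 0.59 (permutation p = 0.0075 and 0.00562, adjusted 0.0879 and 0.164), with 0.65 in females, 0.47 in males and 0.42 without female knockdown replicate 4 and male control replicate 3. In males labelled knockdown the microglial mean ran from 7.67 to 7.74 and in male controls from 7.57 to 7.70. The medium spiny neuron mean ran from 10.34 to 10.64 and from 10.20 to 10.56 in the same groups. In males 9 of 9 medium spiny neuron genes and 6 of 7 microglial genes had positive differences, with medians of 0.11 and 0.07 (0.065). Over all probe sets 20560 of 41345 were positive in males, with a median of 0. In females 4 of 9 and 2 of 7 of these genes were positive, with medians of −0.005 and −0.046. Genes of a list were read in the same punches and are not independent. The part of these cells in the male Tef difference was not tested. Hlf gave its largest value with 8 astrocyte genes, r = −0.44 and rho = −0.42 (permutation p = 0.0672 and 0.0711, adjusted 0.406 and 0.474), and −0.41 without the 2 arrays farthest from the median of that list.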

How the data were processed

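The deposited table holds log2 intensities of 41345 probe sets on 23 arrays. The software, Transcriptome Analysis Console, is known from the submitters' processing notes. Version, normalization and build: not given in the sources used here. From 150 ng of total RNA, per the labels' protocols, cDNA was made. Array medians differ between the sexes and are alike within each, as the values show. The number of arrays limits the precision.

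Symbols came from the platform annotation: 23521 probe sets had 1 symbol, 1814 several and 16010 none. limma 3.58.1 in R 4.3.3 was fitted to all 23 arrays and probe sets (19 residual and 3.24 prior degrees of freedom), after a test on simulated data. Covariation used numpy 2.4.6 in Python 3.11.15. Members and lists were chosen with earlier results of these data known. Genes named are the 4 factors, Nr1d1, the 2 of each list with the smallest p in each contrast (none passed), the core clock genes with the highest and lowest r to each factor, and the 3 most and 1 least alike genes; the other clock genes and marker genes named were chosen after their values were seen. Same-numbered control and knockdown arrays had deviations that correlated between −0.10 and 0.14, over 0.1 in 2 of 11 pairs, so replicate numbers were not taken as pairs. Alternatives are given in the closing section.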

Additional observations from a re-analysis of the deposited data

Results flagged for a closer look

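Nr1d1 in control female replicate 4, at 9.93, lay apart from the other 4 control females, which read 10.05 to 10.09. Its gap to the nearest of them was 0.75 of the range of the group. This was the 1 array that stood apart among 20 sets of 5 or 6 arrays examined, the 4 factors and Nr1d1 in each of 4 groups, and chance alone gives about 1 such set in 20.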

How the results depend on the processing

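The 4 factors and Nr1d1 stayed short of the threshold in every fit run: in all contrasts with quantile normalization, median centring, array weights, eBayes with trend and robust, a filter on low probe sets, a replicate block, the cortical mean as covariate and arrays left out; within each sex when fitted alone; and for Tef by its other probe set. The lowest adjusted p among these was 0.523, for Nfil3 in females with array weights. With the replicate block the knockdown difference in females was 0.152 for Nfil3, 0.142 for Hlf, 0.112 for Dbp and −0.022 for Tef, and the block changed no call. Small differences changed sign. The male minus female difference of Dbp was 0.0193 after median centring, 0.0303 with the cortical mean and −0.086 to 0.046 leaving out 1 array. Tef by its other probe set was 0.0797 in females and −0.0147 male minus female, and its average was −0.0027 without male controls 1 and 6 and −0.0146 to 0.0254 leaving out 1. Nr1d1 in males was 0.0183 with the cortical mean and −0.0483 to 0.0407 leaving out 1, and male minus female −0.0285 without male controls 1 and 6 and −0.0117 to 0.093 leaving out 1. Leaving out 1, Hlf in males was −0.0337 to 0.0063, Nr1d1 in females −0.088 to 0, Dbp in females 0.05 to 0.128 and Tef in females −0.0875 to −0.0075. Counts past the threshold were 1 male minus female with array weights, 1 in males and 1 male minus female without male controls 1 and 6, and 0 to 1 leaving out 1 array (in females without female knockdown 1 or male knockdown 4; in males and male minus female without male control 1 or 5). Counts varying with Dbp were 0 within females, 2 within males, 5 with the cortical mean and 10 to 370 leaving out 1; for Nfil3 they were 0 with the filter, within each sex and with the cortical mean, and 0 to 1 leaving out 1. The r of Dbp with Hlf was −0.0215 by rho, −0.0708 within males, −0.131 in controls, −0.0304 without the 2 farthest arrays and −0.177 to 0.15 leaving out 1. Hlf with Nfil3 was 0.001 by rho, 0.391 within males, 0.402 in controls, 0.0516 without the 2 farthest and −0.143 to 0.132 leaving out 1. Tef with Nfil3 was 0.223 within males, and Dbp with Nfil3 0.29 with the cortical mean removed. The cause was not tested. The cortical mean as second covariate for these counts was chosen after seeing the data.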

Other observations

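Beyond the clock, the bZIP relatives and targets of the factors gave these slopes over the 23 arrays, in log2 per log2 of the factor, none past the limma threshold. Cebpg, a C/EBP partner that lacks an activation domain, had a slope of −0.53 on Dbp (SE 0.17, adjusted p = 0.165). Pdxk had a slope of −0.54 on Nfil3 (SE 0.20, adjusted p = 0.451) and of 0.59 on Tef (SE 0.26, adjusted p = 0.799). On the other PAR bZIP factors its slope was 0.24 for Dbp (SE 0.145, adjusted p = 0.548) and −0.01 for Hlf (SE 0.28). Cebpa and Ddit3 had slopes of 0.90 (SE 0.38) and 0.65 (SE 0.27) on Hlf, each with an adjusted p of 0.964. These genes were chosen after their values were seen.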
